A study of Mus musculus with 12 samples.

Results

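Tail dermis was compared with back dermis of mice 5 days after birth (P5) on 6 Affymetrix MG430.2A arrays, which measure RNA levels with probe sets of short oligonucleotides. The 3 arrays titled P5 tail (replicates 2, 3 and 4) and the 3 titled P5 back (replicates 1, 2 and 3) were chosen by their titles, and they are 6 of the 12 arrays of the series. The other 6 arrays hold tail and back dermis 1 day after birth (P1), with 3 of each. All mice were labelled C57Bl6/CBA F1, and the labels name no transgene, mutation or treatment and give no sex. The protocol attached to the P5 arrays describes P1 mice: tail skin was lifted from its epidermis in EDTA and back skin in dispase-trypsin, the dermis was pulled off with forceps and digested to separate cells, and RNA was taken from triplicate mice. Site and separating solution are thus joined in the design, and their effects cannot be told apart. Each array was taken as 1 mouse, so the p-values measure the spread between these arrays.

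Fibroblasts of the dermis keep a memory of their place along the body, which is held in part by Hox genes. These lie in clusters, and the last genes of each cluster are as a rule used furthest towards the tail. Tail skin has epidermal scales with follicles between them, whereas back skin carries a dense coat whose first hairs grow in the days after birth, while the dermal fat layer fills with lipid. A dermis preparation holds fibroblasts and also the follicles, glands, vessels, nerves and immune cells embedded in it.

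The deposited values are log2 values in which each probe set was centred on its median over the 12 arrays, so a value of 1 means 2-fold above that median, and differences between arrays can be read but levels cannot. The label dermis can for this reason not be checked on the level of dermal collagens. P5 tail replicate 2 had the widest spread over probe sets, with an SD of 0.496 against 0.227 to 0.338 on the other arrays. On that array the centred values of the 5′ probe sets of the control transcript Gapdh lay 0.563 above those of the 3′ ones, against -0.356 to 0.241 elsewhere. This is a shift relative to the other arrays and not a level of 5′ over 3′ signal. Eif2s3y, a gene of the Y chromosome, was at -1.25 on that array against -0.15 to 0.34. Xist, a gene of the X chromosome, was at -0.109 on it, within the -0.178 to 0.389 of the other arrays. Correlations between arrays of 1 group ran from 0.17 to 0.27 in P5 tail and from 0.28 to 0.52 in P5 back. Every count below was therefore also taken with each P5 array left out in turn.

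The array labels and the positional genes pointed in opposite ways. Hox genes of the last paralogue groups, which mark the caudal end of the body, were higher in the arrays labelled back, and trunk genes such as Hoxc8 were higher in the arrays labelled tail, at both ages. All directions given here are those of the array labels, written as tail-labelled minus back-labelled. For the fat-cell genes of the P1 arrays the direction is the reverse of that the study gives, and it does not report on the P5 arrays. No label was exchanged, and whether the labels or the positional genes mislead was not tested.

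Of 18193 genes, 1257 (6.91%) differed between the tail-labelled and back-labelled P5 arrays at an adjusted p under 0.05 by limma, a linear model with moderated variances. Of these, 783 (4.30%) were higher and 474 (2.61%) were lower in tail-labelled arrays. These shares of all genes are to be set beside the counts of list members below. At 2-fold or more 433 genes (2.38%) differed, and 253 of the higher and 131 of the lower genes met both criteria. All 3 arrays of one label lay above all 3 of the other in 3749 genes (20.6%), 2007 (11%) with tail-labelled arrays above and 1742 (9.58%) with them below, and 1255 of the 1257 genes that passed the test were among these. The median difference over all genes was -0.019. Counted by probe set, 2145 of 45037 (4.76%) passed, 1325 higher and 820 lower, and 904 (2.01%) reached 2-fold. The gene count was 2136 without P5 tail replicate 4, and it was 765, 737 and 786 without P5 back replicates 1, 2 and 3.

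Posterior Hox genes were lower and Hoxc8 was higher in the tail-labelled arrays, and these were among the largest differences measured. Of 10 genes of Hox paralogue groups 10 to 13, 7 were lower and none was higher, with a median of -1.35. Hoxd11, which acts in the patterning of limbs and the caudal skeleton, was at -1.18, -1.54 and -1.87 in the tail-labelled and 1.83, 1.91 and 1.52 in the back-labelled arrays (log2 difference -3.28, standard error 0.17, adjusted p = 5.67e-07 by limma). Values of Hoxd10, its neighbour in the cluster, were -1.19, -1.71 and -1.80 in the tail-labelled and 1.63, 1.47 and 1.35 in the back-labelled arrays (log2 difference -3.05, standard error 0.25, adjusted p = 2.21e-05). Hoxa11 was at -1.41, -1.19 and -1.66 in the tail-labelled and 0.99, 1.32 and 1.0 in the back-labelled arrays (log2 difference -2.52, standard error 0.16, adjusted p = 3.05e-06). For these 3 genes a gap of more than 2 log2 units lay between the arrays of the 2 labels. Hoxb13, a marker of the caudal end, differed by -1.85, Hoxa10 by -1.52, Hoxa13 by -1.19 and Hoxc13, which is also used in the hair shaft, by -0.62. Hoxd13 at -0.36, Hoxc10 at -0.32 and Hoxd12 at -0.12 did not pass.

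Of 23 genes of paralogue groups 1 to 9, 8 were higher and 3 were lower in tail-labelled arrays. Hoxc8, a gene of the trunk, was at 1.83, 1.56 and 1.47 in the tail-labelled and -1.44, -1.24 and -1.27 in the back-labelled arrays (log2 difference 2.93, standard error 0.14, adjusted p = 2.83e-07). The remaining higher genes belonged to groups 2 to 6, from Hoxa3 at 0.58 to Hoxa2 at 1.19, with Hoxa5 at 0.98 and Hoxb6 at 0.95 between them. The 3 lower genes were Hoxd9 at -1.31, Hoxa9 at -1.09 and Hoxb9 at -0.79, all of group 9, whereas Hoxc9 at -0.07 did not pass. All Hox genes that passed were thus higher up to group 8 and lower from group 9 on.

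**Figure D1:**
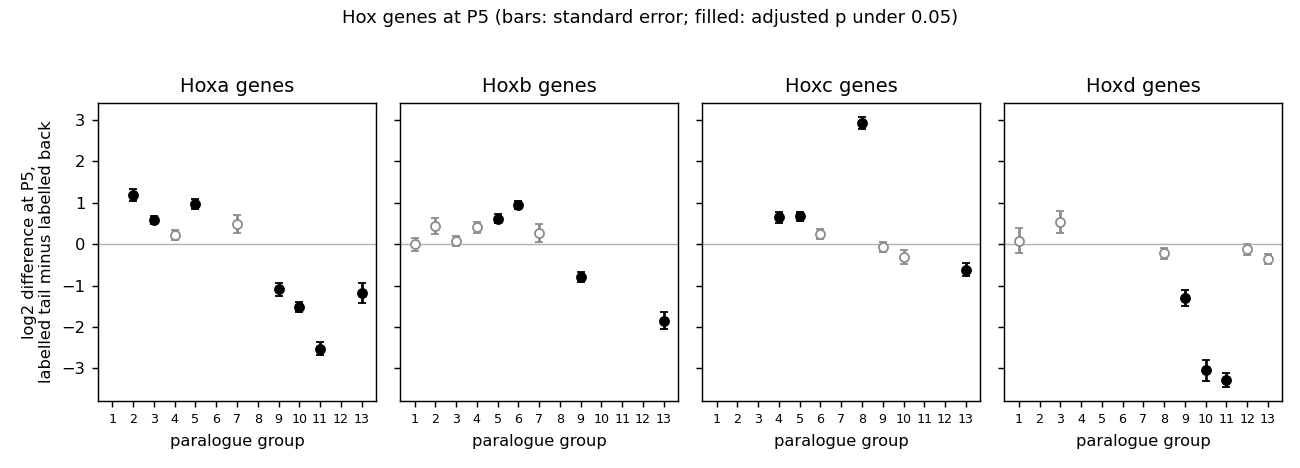
Differences of 33 Hox genes at P5 (vertical axis, log2, labelled tail minus labelled back, bars give the standard error) by paralogue group (horizontal axis) in the 4 clusters. Filled points passed the test, and Hoxd11 at -3.28 and Hoxc8 at 2.93 lie furthest from 0.

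Of 58 other transcription factors that lay out position, 13 were higher and 4 were lower. Emx2, a homeobox factor of the forebrain, urogenital tract and girdles, was at 1.84, 1.47 and 1.67 in the tail-labelled and -1.61, -1.67 and -1.07 in the back-labelled arrays (log2 difference 3.11, standard error 0.20, adjusted p = 3.75e-06). Zic1, a zinc finger factor of dorsal tissue, was at 1.30, 1.41 and 0.66 in the tail-labelled and -0.80, -1.24 and -1.13 in the back-labelled arrays (log2 difference 2.18, standard error 0.22, adjusted p = 9.92e-05). The arrays of the 2 labels did not overlap for either gene. Lhx2, used in follicle stem cells, rose by 1.13 and Irx4 by 1.26, while Pax9, a factor of the vertebral column and limbs, was lower, at -1.68, and so was Tbx4, which marks the hindlimb, at -1.22. Tbx15, which patterns trunk dermis, was higher by 0.65 at P5.

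Transcripts of the epidermis differed strongly although the samples were labelled dermis, and most of those that passed were higher in tail-labelled arrays. Of 20 genes of the basal layer 7 were higher and 1 was lower, with a median of 0.55. Krt14, the keratin of basal keratinocytes, was at 0.32, 0.52 and 0.52 in the tail-labelled and -1.01, -0.46 and -0.49 in the back-labelled arrays (log2 difference 1.11, standard error 0.17, adjusted p = 0.00159). Krt15, used in basal and bulge cells, differed by 1.33 and its partner in the basal layer Krt5 by 0.62. Col17a1 at 1.57 and Lamb3 at 1.77 encode parts of the junction that ties the epidermis to the dermis. The lower gene was Krt8, a keratin of simple epithelia, at -0.70. The list mean was 0.169 to 0.524 on the tail-labelled and -0.295 to -0.148 on the back-labelled arrays, and its part in other differences was not tested. In bulk samples fewer cells of a type and less RNA per cell cannot be told apart, and this holds for every cell type below.

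Of 48 genes of the cornified envelope, the protein shell of the outermost keratinocytes, 10 were higher and none was lower, with a median of 0.78. Flg, which encodes filaggrin, was at 0.80, 0.49 and -0.11 in the tail-labelled and -4.56, -3.89 and -2.15 in the back-labelled arrays (log2 difference 3.93, standard error 0.85, adjusted p = 0.0136). Lor, which encodes the envelope protein loricrin, was at 0.84, 0.17 and -0.22 in the tail-labelled and -3.23, -3.05 and -2.21 in the back-labelled arrays (log2 difference 3.10, standard error 0.79, adjusted p = 0.0332). Within each label the values of both genes were spread widely, yet no tail-labelled array reached down to a back-labelled one. Lce1a1 at 3.19, Lce1a2 at 3.15 and Lce1c at 3.08, late envelope genes that share sequence, moved with them. In all, 26 of the 48 had every tail-labelled array above every back-labelled array and 1 had the reverse, where 11% and 9.58% of all genes did. The count of 10 rested on all arrays: it was 3 without P5 tail replicate 2, 3 without P5 tail replicate 3, and 1, 3 and 4 without P5 back replicates 1, 2 and 3.

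Krt77 had the largest difference of all genes that were higher. This suprabasal keratin was at 4.09, 4.12 and 3.32 in the tail-labelled and -2.5, -0.56 and -0.34 in the back-labelled arrays (log2 difference 4.98, standard error 0.50, adjusted p = 7.84e-05). Krt2, a keratin of the upper epidermal layers, went the other way, at -1.56, -1.56 and -1.68 in the tail-labelled and 1.56, 2.86 and 2.67 in the back-labelled arrays (log2 difference -3.96, standard error 0.28, adjusted p = 7.58e-06). Neither overlapped between labels. Krt1 at 1.18 and Krt10 at 0.80, the main keratins of the suprabasal layers, did not pass (adjusted p = 0.262 and 0.2). Among stress keratins, which keratinocytes make after injury and in follicles, Krt6a at 1.73 and Krt17 at 0.77 were higher, while Krt16 at 0.61 and Krt6b at 0.62 did not pass. The list of suprabasal and scale keratins gave 2 genes in each direction of 13, and 1 in each without P5 back replicate 2 or 3. Its 2 lower genes were Krt2 and Krt31, and Krt31 is also counted among the hair shaft keratins below. What these 2 genes say about the labels was not tested. None of 12 desmosome genes passed by limma or by the methods' t-test, 2 had an unadjusted p under 0.05 by limma, and 2 were higher without P5 tail replicate 4. The t-test passed only 24 of all genes, so that no member of a list passed by it says little, here and below.

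Proteases of the outer epidermis and their inhibitors gave 7 genes that were higher and 1 that was lower, of 27. Kallikreins, serine proteases that loosen the bonds between shed keratinocytes, made up 4 of the 7. Klk6 was at 2.77, 2.58 and 1.83 in the tail-labelled and -0.27, -0.04 and -0.33 in the back-labelled arrays (log2 difference 2.61, standard error 0.21, adjusted p = 1.9e-05), and Klk5 at 1.70, Klk10 at 1.5 and Klk7 at 1.46 followed. Cst6, an inhibitor of cysteine proteases in the epidermis and follicle, was at 3.04, 2.90 and 2.35 in the tail-labelled and -0.25, 0.35 and 0.15 in the back-labelled arrays (log2 difference 2.68, standard error 0.25, adjusted p = 4.81e-05). The membrane protease gene Tmprss4 differed by 2.09. The single lower gene, Spink12, a serine protease inhibitor of the Kazal type, had the largest negative difference of all 18193 genes. Its values were 0.51, 0.07 and 0.37 in the tail-labelled and 4.62, 5.02 and 5.08 in the back-labelled arrays (log2 difference -4.59, standard error 0.17, adjusted p = 2.75e-08), so that the back-labelled arrays stood more than 4 log2 units above the tail-labelled ones. Without P5 back replicate 1 or 2 the list gave 5 genes in place of 8.

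Genes of the sebaceous gland, which makes the oily secretion of the follicle, were mostly higher in tail-labelled arrays. Of 13 measured, 8 were higher and 1 was lower, with a median of 1.42 against -0.019 over all genes. Krt79, a keratin of the upper follicle and gland duct, was at 1.65, 1.74 and 1.61 in the tail-labelled and -0.92, -0.88 and -0.84 in the back-labelled arrays (log2 difference 2.55, standard error 0.10, adjusted p = 3.78e-08), and the SD within a label was 0.06 or less. Cidea, a lipid droplet protein of sebocytes and brown fat, was at 3.26, 3.14 and 2.11 in the tail-labelled and 0.23, -0.16 and -0.25 in the back-labelled arrays (log2 difference 2.90, standard error 0.26, adjusted p = 3.62e-05). The 3 tail-labelled arrays stood clear of the others for both genes. Elovl4 at 2.17, Far2 at 2.13 and Sdr16c6 at 2.13 encode enzymes that make very long lipids, wax alcohols and retinoids or sterols of the gland, and Scd3, a desaturase found mainly in skin, differed by 1.59. Plin2, the coat protein of small lipid droplets, was higher by 1.42 and Elovl3, an elongase of sebocytes, by 1.10. The lower gene was Fads2, another desaturase, at -0.59.

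Lipid synthesis genes moved with them to a lesser degree: of 24 genes of fatty acid and cholesterol synthesis, 7 were higher and none was lower, with a median of 0.17. Elovl6 at 1.44, Me1 at 1.06 and Scd1 at 1.0, which serve fatty acid synthesis, were the largest of these. Other genes near the top of the higher list were Cyp2g1 at 3.02, Tmem45b at 2.98 and the esterase gene Ces4a at 2.83. Their values on the 3 tail-labelled arrays lay between 2.26 and 3.37, and those on the back-labelled arrays between -0.65 and 0.49.

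**Figure D2:**
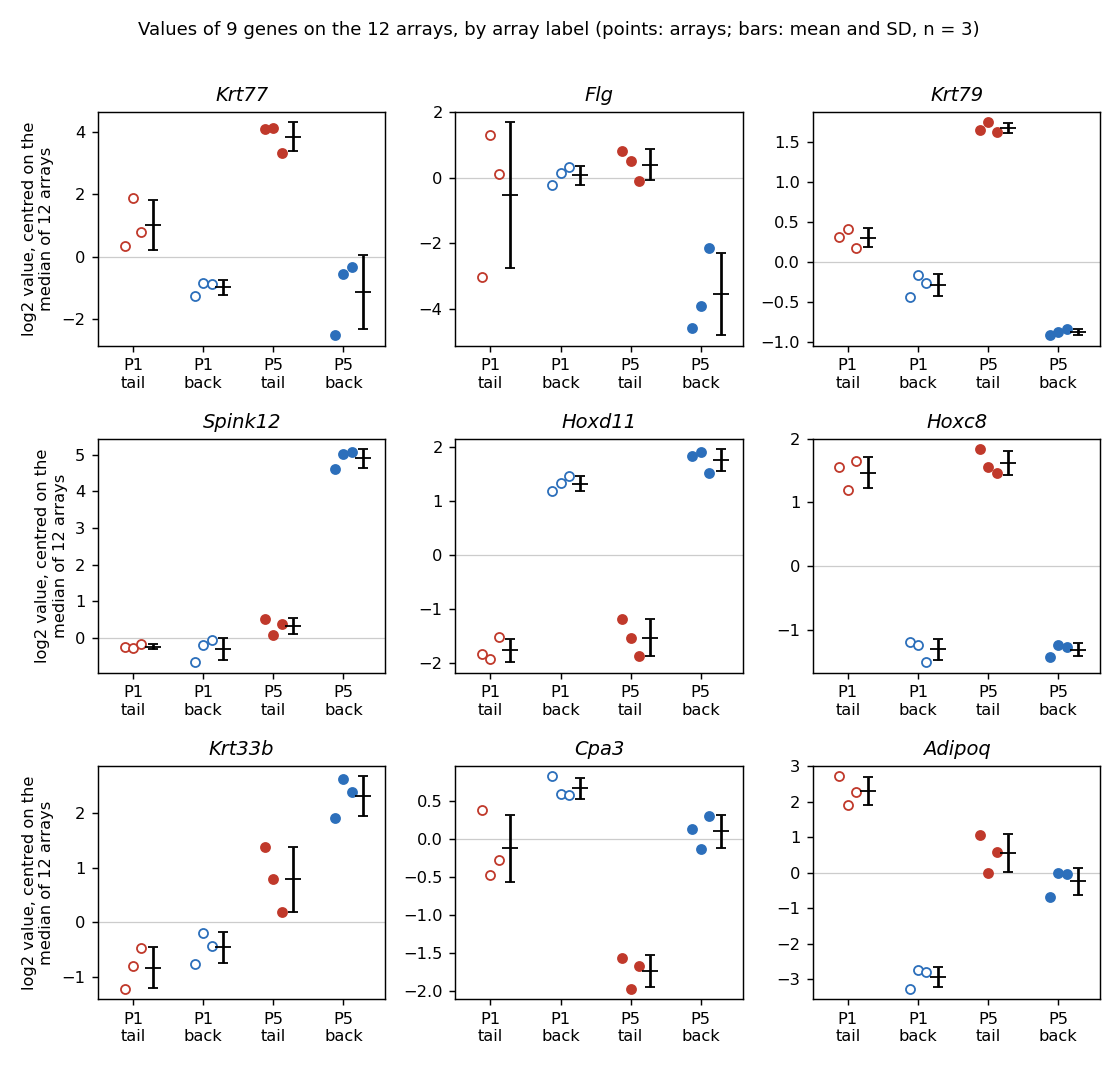
Values of 9 genes (vertical axes, log2 relative to the 12-array median) on arrays labelled tail (red) and back (blue) at P1 (open) and P5 (filled), with the mean and SD of each group of 3. At P5 the tail-labelled arrays lie above the back-labelled ones for Krt77, Flg, Krt79 and Hoxc8 and below them for Spink12, Hoxd11, Krt33b and Cpa3, while for Adipoq 1 tail-labelled array at 0.00 lies among the back-labelled ones.

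Structural genes of the hair shaft were lower in tail-labelled arrays, opposite to the epidermal genes. Of 12 hair shaft keratins 7 were lower and none was higher, and all 12 differences were below 0, with a median of -1.17. Krt33b, a type I keratin of the shaft cortex, was at 1.38, 0.79 and 0.19 in the tail-labelled and 1.91, 2.63 and 2.38 in the back-labelled arrays (log2 difference -1.52, standard error 0.29, adjusted p = 0.00615). Krt31 was at 1.64, 1.13 and 0.36 in the tail-labelled and 1.94, 2.56 and 2.35 in the back-labelled arrays (log2 difference -1.25, standard error 0.30, adjusted p = 0.0242). The 2 labels did not overlap for either gene, but within the tail label the values fell widely apart, with replicate 4 lowest. The others that passed were Krt86 at -1.34, Krt32 at -1.29, Krt83 at -1.29, Krt82 at -1.16 and Krt35 at -1.12, and Krt83 was the only one of the 7 whose arrays overlapped, and it was at -0.86 (adjusted p = 0.0909 by limma) without P5 tail replicate 4. The count was 4 without P5 tail replicate 3, 3 without P5 tail replicate 4 or P5 back replicate 3, and 2 without P5 back replicate 2. By the mean of the list, P5 tail replicate 2 at 1.29 was close to P5 back replicate 1 at 1.35, and the lowest and highest arrays were P5 tail replicate 4 at 0.16 and P5 back replicate 2 at 2.08.

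Keratin-associated proteins, which cross-link the keratins of the shaft, moved the same way: 11 of 34 were lower and none was higher, with a median of -0.95. Krtap5-4 was at 0.54, -0.06 and -0.67 in the tail-labelled and 0.96, 3.08 and 2.42 in the back-labelled arrays (log2 difference -2.22, standard error 0.43, adjusted p = 0.00779). Krtap4-2 was at 0.06, -0.13 and -1.62 in the tail-labelled and 1.12, 1.92 and 1.68 in the back-labelled arrays (log2 difference -2.14, standard error 0.42, adjusted p = 0.00776). The labels were apart for both genes, but they overlapped in the mean of the list. There P5 tail replicates 2 and 3, at 1.43 and 1.26, lay above P5 back replicate 1, at 1.06. Krtap5-2 at -2.08 and Krtap12-1 at -1.74 followed, and genes of this family share sequence, so that their probe sets may not be independent. The count was 5 without P5 back replicate 3, where none was higher, and 6 without P5 back replicate 2, where 1 of the 6 was higher. None of 15 genes of the inner root sheath, the layer that moulds the shaft, passed by limma or by the methods' t-test (3 had an unadjusted p under 0.05 by limma), with a median of -0.09.

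The promoters of 2 hair shaft keratins and 2 keratin-associated proteins are shown because these genes moved together. Promoters of hair shaft keratins are known to carry a site for Lef1, the nuclear partner of β-catenin, and a TATA box, and the 4 were chosen among those that hold a match. Each runs from 250 bases before the annotated start of transcription to 50 bases from it, on the strand of the gene, as given by RefSeq for build GRCm38.p6. Capitals mark CTTTGAA, a Lef1 site, and TATAAA, searched on both strands.
Krt31, chr11:100050502-100050801, minus strand: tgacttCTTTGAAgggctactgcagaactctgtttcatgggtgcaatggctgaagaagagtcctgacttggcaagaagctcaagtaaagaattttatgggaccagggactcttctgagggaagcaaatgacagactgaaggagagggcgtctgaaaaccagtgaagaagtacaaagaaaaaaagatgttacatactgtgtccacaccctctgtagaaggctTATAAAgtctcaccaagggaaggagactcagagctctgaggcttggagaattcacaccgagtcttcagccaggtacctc
Krt33b, chr11:100029819-100030118, minus strand: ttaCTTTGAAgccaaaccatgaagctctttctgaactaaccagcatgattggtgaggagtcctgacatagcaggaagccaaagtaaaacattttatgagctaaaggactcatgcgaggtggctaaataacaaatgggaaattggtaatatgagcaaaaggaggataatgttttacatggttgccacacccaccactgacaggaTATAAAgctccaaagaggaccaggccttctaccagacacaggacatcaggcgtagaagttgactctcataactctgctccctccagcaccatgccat
Krtap5-4, chr7:142303252-142303551, plus strand: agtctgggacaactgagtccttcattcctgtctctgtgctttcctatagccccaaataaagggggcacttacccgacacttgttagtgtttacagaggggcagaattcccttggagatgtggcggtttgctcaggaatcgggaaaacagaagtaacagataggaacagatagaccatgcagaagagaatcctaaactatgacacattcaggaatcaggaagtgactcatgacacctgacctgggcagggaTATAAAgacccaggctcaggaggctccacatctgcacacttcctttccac
Krtap4-2, chr11:99635035-99635334, minus strand: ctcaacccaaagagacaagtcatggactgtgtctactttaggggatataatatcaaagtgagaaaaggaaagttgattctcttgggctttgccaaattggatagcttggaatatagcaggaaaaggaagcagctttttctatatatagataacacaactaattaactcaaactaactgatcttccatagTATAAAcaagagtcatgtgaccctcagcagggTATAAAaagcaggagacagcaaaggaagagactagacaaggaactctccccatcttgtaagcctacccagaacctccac

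In Krt31 the CTTTGAA begins 244 bases and in Krt33b 247 bases before the start, and the TATAAA 29 and 47 bases before it. In Krtap4-2 TATAAA begins 61 and 29 bases before the start, and in Krtap5-4 at the annotated start itself. Of the 7 hair shaft keratins that passed, 4 had a promoter in the table and 3 of these held CTTTGAA, as did 4 of 7 for the measured members of that list, and it stands in 5.27% of the promoters of 27025 genes. None of the 10 promoters found for the 11 keratin-associated genes that passed held CTTTGAA, and 6 of 32 for the measured members did. TATAAA stood in 9 of those 10, in 26 of the 32, and in 14.2% of all promoters. These are matches of letters, and no binding was measured. With 4 promoters of shaft keratins that passed, the share of CTTTGAA among them says little. Lef1 itself, which hair matrix cells and papillary fibroblasts use, was at 0.26, -0.29 and -0.17 in the tail-labelled and 0.54, 0.52 and 0.34 in the back-labelled arrays (log2 difference -0.53, standard error 0.14, adjusted p = 0.0428), with no overlap between labels. Of its probe sets, that at -0.67 passed by itself (adjusted p = 0.012 by limma) and that at -0.39 did not (adjusted p = 0.35).

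Epithelial regulators of the follicle did not follow the shaft genes. Of 28, 9 were higher and 3 were lower in tail-labelled arrays. Lgr6, a receptor for R-spondins in stem cells of the upper follicle, was at 1.27, 1.16 and 0.91 in the tail-labelled and -0.47, -0.98 and -0.79 in the back-labelled arrays (log2 difference 1.86, standard error 0.15, adjusted p = 1.98e-05). Lrig1, a feedback inhibitor of growth factor receptors that marks the follicle junction and also papillary fibroblasts, was at 0.34, 0.68 and 0.64 in the tail-labelled and -0.38, -0.70 and -0.65 in the back-labelled arrays (log2 difference 1.13, standard error 0.12, adjusted p = 0.000109). Sox9, a factor of outer root sheath and bulge cells, was at 0.82, 0.58 and 0.62 in the tail-labelled and -0.47, -0.26 and -0.41 in the back-labelled arrays (log2 difference 1.05, standard error 0.10, adjusted p = 5.87e-05). In these 3 genes the labels were apart. Edar at 0.54 and Shh at 0.53, a receptor and a ligand of follicle formation, were higher by less than 2-fold, and probe sets of each of these 2 genes differed in sign. The 3 lower genes were Hoxc13, Lef1 and Wnt10b at -0.53. Without P5 back replicate 3 the list gave 7 higher and none lower.

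**Figure D3:**
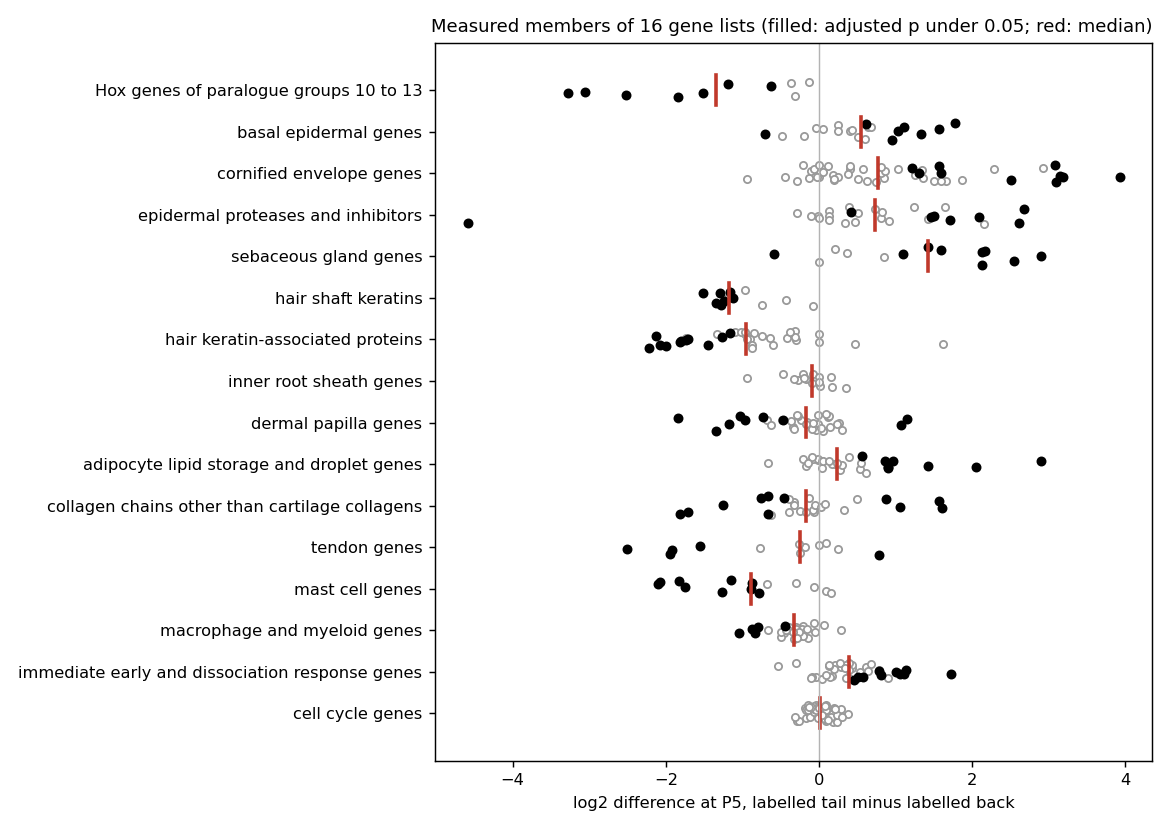
Differences at P5 (horizontal axis, log2, labelled tail minus labelled back) of the measured members of 16 lists, where filled points passed the test and red bars mark list medians. The sebaceous median of 1.42 and the posterior Hox median of -1.35 lie at the 2 ends, and none of the 49 cell cycle genes passed.

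Genes of the dermal papilla, the cluster of fibroblasts that instructs the follicle, gave 7 lower and 2 higher of 34 in tail-labelled arrays. Pappa2, a protease that frees insulin-like growth factor, was at -1.01, -1.51 and -1.65 in the tail-labelled and 0.62, 0.30 and 0.45 in the back-labelled arrays (log2 difference -1.84, standard error 0.18, adjusted p = 6.05e-05). Fgf7, a growth factor that fibroblasts send to keratinocytes, was at -0.26, -0.10 and -0.26 in the tail-labelled and 0.92, 0.70 and 0.66 in the back-labelled arrays (log2 difference -0.97, standard error 0.13, adjusted p = 0.000584). No array of one label lay among those of the other. Igfbp3 at -1.34, Prom1 at -1.17 and Crabp1 at -1.03 were also lower. The 2 higher genes were Corin, a papilla protease, at 1.15 and Sostdc1, an antagonist of BMP and Wnt signals, at 1.07. Sox2, which marks the papillae of some follicle types, was at -0.68 and did not pass (adjusted p = 0.307).

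Markers of papillary fibroblasts, the lineage of the upper dermis, gave 5 higher and 1 lower of 15, and markers of reticular and fat-lineage fibroblasts gave 1 higher and 4 lower of 20. Rspo1, which strengthens Wnt signals, was at 1.25, 0.47 and 0.44 in the tail-labelled and -0.26, -0.76 and -0.72 in the back-labelled arrays (log2 difference 1.30, standard error 0.20, adjusted p = 0.00167). Lrig1 is described above, and Dpp4 at 0.50, Apcdd1 at 0.61 and Axin2 at 0.48 were higher by less than 2-fold, with probe sets of both signs for Dpp4, while Lef1 was the lower one. Mgp, an inhibitor of mineralisation that the reticular dermis makes, was at -0.10, -1.10 and -0.78 in the tail-labelled and 0.62, 0.96 and 1.13 in the back-labelled arrays (log2 difference -1.56, standard error 0.31, adjusted p = 0.00912). Both Rspo1 and Mgp had labels that did not overlap. Mgp was highest on P5 back replicate 3, which also held the highest mean of cartilage genes among the P5 arrays, as given below. Igf2, an imprinted growth factor, was lower, at -1.0, and Dlk1, the marker of the lower lineage, was at -0.69, -1.99 and -1.55 in the tail-labelled and -0.25, -0.72 and -0.04 in the back-labelled arrays and did not pass (adjusted p = 0.055). The papillary count was 3 in place of 6 without P5 back replicate 2 or 3. The reticular count was 2 in place of 5 without P5 tail replicate 3 or P5 back replicate 3, 1 without P5 back replicate 1 and 3 without P5 back replicate 2.

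Adipocyte genes, which gave large site differences at P1, gave lower ones at P5 for 5 of 18 secreted factors and 9 of 29 lipid storage genes and higher ones for 3 lipid storage genes, by the contrast of the 2 ages. Of 18 secreted factors 3 were higher and 1 was lower in tail-labelled arrays, against 7 higher and none lower at P1. Adipoq, which encodes adiponectin, was at 1.06, 0.00 and 0.58 in the tail-labelled and -0.69, 0.00 and -0.04 in the back-labelled arrays, and its difference of 0.79 at P5 (adjusted p = 0.124) stood beside 5.23 at P1 (difference between ages -4.44, adjusted p = 0.000372 by the limma contrast of the 2 site differences). Lep, which encodes leptin, differed by 0.57 at P5 (adjusted p = 0.145) and by 2.93 at P1. The P5 arrays of the 2 labels overlapped for Adipoq but not for Lep. Retn at 0.64 and Rbp4 at 1.17 were higher, and the growth factor Igf1 was lower, at -0.96. The count of 4 secreted factors was 2 without P5 tail replicate 2 or P5 back replicate 2 or 3, and 1 without P5 back replicate 1.

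Of 29 lipid storage and droplet genes 8 were higher and none was lower at P5, against 16 higher and 1 lower at P1. Plin2 and Cidea, which sebocytes also use, were among the 8, with the acute phase gene Orm1 at 2.05 and smaller differences of Adig at 0.96, Plin4 at 0.90 and Mgll at 0.89. Cidec, the droplet protein of white fat, was at 0.53 (adjusted p = 0.321) at P5 and 2.76 at P1. Among 22 adipogenic factors 5 were higher and 4 were lower, and Pparg was at 0.87, 0.79 and 0.80 in the tail-labelled and -0.51, -0.58 and -0.35 in the back-labelled arrays (log2 difference 1.30, standard error 0.16, adjusted p = 0.000272). Cebpa was at 0.86, 0.63 and 0.56 in the tail-labelled and -0.53, -0.51 and -0.51 in the back-labelled arrays (log2 difference 1.20, standard error 0.10, adjusted p = 2.75e-05). Both act in fat cells and in sebocytes, and the labels were apart for both. Ebf3 at -1.11, Ebf2 at -0.98, Zfp423 at -0.80 and Gata2, which is also a mast cell factor, were lower.

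Of 12 tendon genes 4 were lower and 1 was higher in tail-labelled arrays. Fmod, a small proteoglycan that binds collagen, was at -0.81, -1.38 and -0.98 in the tail-labelled and 0.94, 1.31 and 2.09 in the back-labelled arrays (log2 difference -2.5, standard error 0.38, adjusted p = 0.00146). Tnmd, a marker of tendon cells, was at -0.43, -0.90 and -0.92 in the tail-labelled and 0.70, 1.03 and 1.85 in the back-labelled arrays (log2 difference -1.95, standard error 0.41, adjusted p = 0.0124). In both genes P5 back replicate 3 was the highest array and the labels did not overlap. With Mkx, a tendon factor, at -1.56 and Cpxm2 at -1.92 they made up the 4 lower genes, and the higher one was Egr1 at 0.78. Without P5 back replicate 3 the tendon list gave 2 lower and 1 higher, with a median of 0.04 in place of -0.25. That array also held the highest mean of cartilage genes (0.584, other P5 arrays -0.326 to 0.127) and of skeletal muscle genes (0.944, other P5 arrays -0.660 to -0.183), and its Col2a1, the collagen of cartilage, was at 3.77 against 0.38 or less on the other 5. Col2a1 did not pass (log2 difference -1.76, adjusted p = 0.455), nor did Acan at -1.07. Of 24 cartilage genes 1 was higher and 1 was lower, a share of 8.33% against 6.91% of all genes. The higher one was Sox9 at 1.05, described above as a factor of outer root sheath and bulge cells. The list gave 1 higher alone without P5 tail replicate 3 or any one of the back-labelled arrays. The part of muscle and cartilage in the tendon differences was not tested beyond leaving out that array. P5 back replicate 3 was also the highest P5 array for Mgp at 1.13, Col8a2 at 1.35, Mfap5 at 1.11 and Bmp5 at 0.65. The part of cartilage in the differences of these genes was not tested.

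Of 27 collagen chains other than those of cartilage, 4 were higher and 7 were lower. Col24a1 was at -0.75, -0.92 and -1.05 in the tail-labelled and 1.23, 0.60 and 0.88 in the back-labelled arrays (log2 difference -1.81, standard error 0.18, adjusted p = 5.79e-05). Col12a1, which sits on the surface of collagen fibrils, was at -0.77, -0.89 and -0.73 in the tail-labelled and 0.49, 0.52 and 0.36 in the back-labelled arrays (log2 difference -1.25, standard error 0.12, adjusted p = 5.56e-05). Col4a5, a chain of basement membranes, went up, at 1.38, 1.29 and 1.13 in the tail-labelled and -0.40, -0.36 and -0.25 in the back-labelled arrays (log2 difference 1.61, standard error 0.11, adjusted p = 5.94e-06). The 2 labels were apart for all 3 chains. Col8a2 at -1.71 was also lower, whereas the main dermal collagens Col1a1 at -0.07 and Col3a1 at 0.32 did not pass. Of the small proteoglycans, Ogn at -1.51 and Prelp at -1.28 were lower with Fmod and Lum at 0.54 was higher, of 14. Among 20 elastic fibre genes Mfap5, a microfibril component, was lower, at -1.90, and Efemp1 was higher, at 1.07, and among 35 matrix proteases and inhibitors Adamts8 was higher by 1.44, with 4 higher and 4 lower in all. That last count of 8 was 5 without P5 tail replicate 3 or P5 back replicate 2 and 4 without P5 back replicate 1 or 3, and the proteoglycan count of 4 was 2 without P5 back replicate 3.

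The shares of signalling genes that passed ran from 11.1% to 27.8% by list, and several of these genes encode antagonists. The lists were chosen with earlier results known, so the shares are description only. The share was 27.8% of 18 secreted Wnt antagonists, with 3 higher and 2 lower, 25% of FGF genes and 23.3% of BMP genes. Of 24 receptors and R-spondins 4 were higher (16.7%), and of 33 effectors and targets of β-catenin 5 were higher and 1 was lower (18.2%), against 6.91% of all genes. Of 18 Wnt ligands 1 was higher and 1 was lower (11.1%), and so it was for 14 Hedgehog pathway genes (14.3%). With 2 genes each, these last shares say little. The largest of the β-catenin list was Jun at 0.81, which is counted among the immediate early genes as well. Sfrp1, which binds Wnt ligands outside the cell, was at 1.66, 1.27 and 0.57 in the tail-labelled and -0.13, -0.10 and -0.17 in the back-labelled arrays (log2 difference 1.30, standard error 0.20, adjusted p = 0.00181). Ror1 at 0.82 and Fzd7 at 0.65 encode Wnt receptors and were higher, while Sfrp4 at -0.61 was lower and Dkk1, an inhibitor that fibroblasts secrete, was at -0.63 and did not pass (adjusted p = 0.23). Grem1, an antagonist of BMPs, was at 1.68, 1.40 and 1.98 in the tail-labelled and -0.10, -0.01 and -0.11 in the back-labelled arrays (log2 difference 1.76, standard error 0.16, adjusted p = 3.71e-05). The labels were apart for Sfrp1 and Grem1. Fst, which binds activin and BMPs, was higher by 1.25, and Bmper at -1.57 and Bmp5 at -1.10 were lower, in a list of 30 with 4 higher and 3 lower. Bmp5 passed as the mean of its 3 probe sets, none of which passed by itself. Among 20 FGF genes 1 was higher and 4 were lower, led by Fgf18 at -1.39 and Fgf5, which ends hair growth, at -0.98. Without P5 back replicate 3 the counts of β-catenin effectors, FGF genes and secreted Wnt antagonists were each 3, in place of 6, 5 and 5. The antagonists also gave 3 without P5 back replicate 2, and the Wnt ligands gave none without P5 back replicate 1 or 2 and 1 without P5 back replicate 3.

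Of 16 imprinted growth genes 3 were higher and 3 were lower. Peg10, a gene derived from a retrotransposon that is expressed from the paternal copy, was at -1.99, -2.08 and -2.19 in the tail-labelled and 0.10, 0.01 and 0.08 in the back-labelled arrays (log2 difference -2.15, standard error 0.20, adjusted p = 4.08e-05). Zim1, expressed from the maternal copy, was at 1.23, 0.64 and 0.76 in the tail-labelled and -0.74, -0.70 and -0.82 in the back-labelled arrays (log2 difference 1.63, standard error 0.16, adjusted p = 5.56e-05). For each of these genes the labels were far apart, and the differences at P1 were -1.96 and 1.96. Cdkn1c, which holds back the cell cycle, was lower, at -1.18. In the retinoid list, Lrat, which stores retinol as esters, was higher by 1.47 and the retinal oxidase gene Aldh1a1 by 0.91, with 4 higher and 1 lower of 17, and 3 higher and none lower without P5 back replicate 2.

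Mast cell genes were lower in tail-labelled arrays, with 9 of 14 lower, none higher and a median of -0.88. Cpa3, a carboxypeptidase of mast cell granules, was at -1.56, -1.97 and -1.67 in the tail-labelled and 0.13, -0.13 and 0.31 in the back-labelled arrays (log2 difference -1.83, standard error 0.20, adjusted p = 0.000136). Cma1, a chymase of the granules, was at -1.45, -2.58 and -1.95 in the tail-labelled and 0.25, -0.15 and 0.22 in the back-labelled arrays (log2 difference -2.10, standard error 0.28, adjusted p = 0.000585). Tpsab1, a tryptase, was at -1.92, -1.22 and -1.69 in the tail-labelled and 0.54, 0.43 and 0.45 in the back-labelled arrays (log2 difference -2.08, standard error 0.22, adjusted p = 0.000109). All tail-labelled arrays lay more than 1 log2 unit below the back-labelled ones in these 3 genes. Mcpt4 at -1.75, the IgE receptor chain gene Ms4a2 at -0.87 and the factor Gata2 at -0.89 were lower too, whereas Kit, the growth factor receptor of mast cells and melanocytes, was at -0.68 and did not pass (adjusted p = 0.093), nor did Fcer1a at -0.30. Without probe sets of shared sequence 8 of the genes were left and 4 were lower.

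Gata2, which binds GATA sites in mast cell genes, is itself among the 9 genes of the list that passed. A part of it in the differences of the others was not tested. Promoters are printed to show such sites. Those shown are the 3 that hold a match among the 7 found for the 9 mast cell genes that passed, and the other 4 hold none. The windows, source and build are as above, and capitals mark AGATAA and TGATAA on either strand.
Cpa3, chr3:20242132-20242431, minus strand: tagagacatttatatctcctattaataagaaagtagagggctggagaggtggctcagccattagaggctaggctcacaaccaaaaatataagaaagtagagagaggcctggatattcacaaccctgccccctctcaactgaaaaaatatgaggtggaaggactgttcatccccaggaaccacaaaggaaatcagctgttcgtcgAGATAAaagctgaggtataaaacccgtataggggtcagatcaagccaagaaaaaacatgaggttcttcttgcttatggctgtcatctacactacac
Mcpt4, chr14:56062261-56062560, minus strand: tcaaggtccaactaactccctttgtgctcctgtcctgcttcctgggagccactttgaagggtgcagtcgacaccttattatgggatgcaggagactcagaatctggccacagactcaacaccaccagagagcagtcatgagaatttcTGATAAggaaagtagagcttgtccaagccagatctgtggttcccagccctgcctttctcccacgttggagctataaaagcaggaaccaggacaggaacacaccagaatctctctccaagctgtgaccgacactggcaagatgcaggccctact
Ms4a2, chr19:11623670-11623969, minus strand: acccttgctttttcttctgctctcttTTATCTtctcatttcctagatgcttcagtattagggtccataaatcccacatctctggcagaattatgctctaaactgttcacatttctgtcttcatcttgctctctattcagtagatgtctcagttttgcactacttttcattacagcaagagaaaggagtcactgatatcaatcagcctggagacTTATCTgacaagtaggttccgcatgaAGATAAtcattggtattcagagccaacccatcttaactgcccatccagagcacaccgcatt

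The first site lies 46 bases before the start in Cpa3 and 103 bases in Mcpt4, and Ms4a2 holds 3 sites, 224, 37 and 11 bases before it. AGATAA or TGATAA stood in 3 of the 7 promoters of genes that passed, in 5 of 11 for the measured members of the list and in 19% of the promoters of all 27025 genes. With 7 promoters this share says little, and no binding was measured.

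Of 29 macrophage and myeloid genes 5 were lower and none was higher, with a median of -0.33. Mrc1, the mannose receptor of tissue macrophages, was at -0.81, -1.18 and -0.61 in the tail-labelled and -0.06, -0.14 and 0.23 in the back-labelled arrays (log2 difference -0.88, standard error 0.16, adjusted p = 0.0045), and Pf4 at -1.05 and Cd163 at -0.79 were lower with it. Without P5 tail replicate 2 the count was 9. Cd3g, a chain of the T cell receptor complex, was at 1.68, 1.76 and 1.24 in the tail-labelled and -0.36, -0.07 and 0.40 in the back-labelled arrays (log2 difference 1.57, standard error 0.21, adjusted p = 0.000575). In all, 2 of 9 T cell genes were higher (22.2%, against 6.91% of all genes in either direction). The count was 1 when P5 tail replicate 2, 3 or 4 or P5 back replicate 1 or 3 was left out. Il33, an alarm signal of barrier cells, was lower, at -2.01, as was the chemokine gene Cxcl14, at -1.03, while Il18 was higher by 1.44. Defb6, a defensin gene, was higher by 1.84. Of the 22 blood endothelial genes only Sele, an adhesion molecule of activated vessels, passed, at -1.70. This share was 4.55%, against 6.91% of all genes, and without P5 tail replicate 2 the count was 2. No gene of the lists for lymphatic endothelium (7 measured), melanocytes (14), erythroid cells (14) or interferon response (22) passed by limma or by the methods' t-test, with 0, 3, 2 and 5 at an unadjusted p under 0.05 by limma. Without P5 tail replicate 2, 1 lymphatic, 2 melanocyte and 2 interferon genes were lower, without P5 tail replicate 4, 1 interferon gene was lower and 1 erythroid gene higher, and without P5 back replicate 1, 1 melanocyte gene was higher.

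Immediate early genes, which cells switch on within minutes of stress or dissociation, were higher in tail-labelled arrays. Of 39, 10 were higher and none was lower, with a median of 0.39, and 34 of the differences were above 0. Fos was at 0.16, 0.30 and -0.20 in the tail-labelled and -1.28, -0.84 and -0.78 in the back-labelled arrays (log2 difference 1.06, standard error 0.24, adjusted p = 0.0161). Jun, its partner in the AP-1 factor, was at 0.00, 0.09 and -0.16 in the tail-labelled and -1.02, -0.76 and -0.71 in the back-labelled arrays (log2 difference 0.81, standard error 0.14, adjusted p = 0.00388). Egr2 was at 1.57, 1.88 and 0.92 in the tail-labelled and -0.40, -0.25 and -0.16 in the back-labelled arrays (log2 difference 1.73, standard error 0.20, adjusted p = 0.000238). The labels did not overlap in any of the 3. Atf3 at 1.14, Socs3 at 1.10 and Fosb at 1.01 were higher as well, and the part of these genes in the other differences was not tested. The count was 17 without P5 tail replicate 4, 6 without P5 tail replicate 3 or P5 back replicate 3, 3 without P5 back replicate 1 and 5 without P5 back replicate 2. None of 49 cell cycle genes passed by limma or by the methods' t-test (4 at an unadjusted p under 0.05 by limma), and their differences lay between -0.32 and 0.38. Of 48 skeletal muscle genes 1 was lower, Tcap at -0.71, a share of 2.08% against 6.91% of all genes. Without P5 tail replicate 4, 1 cell cycle gene was higher and 4 muscle genes were lower.

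**Figure D4:**
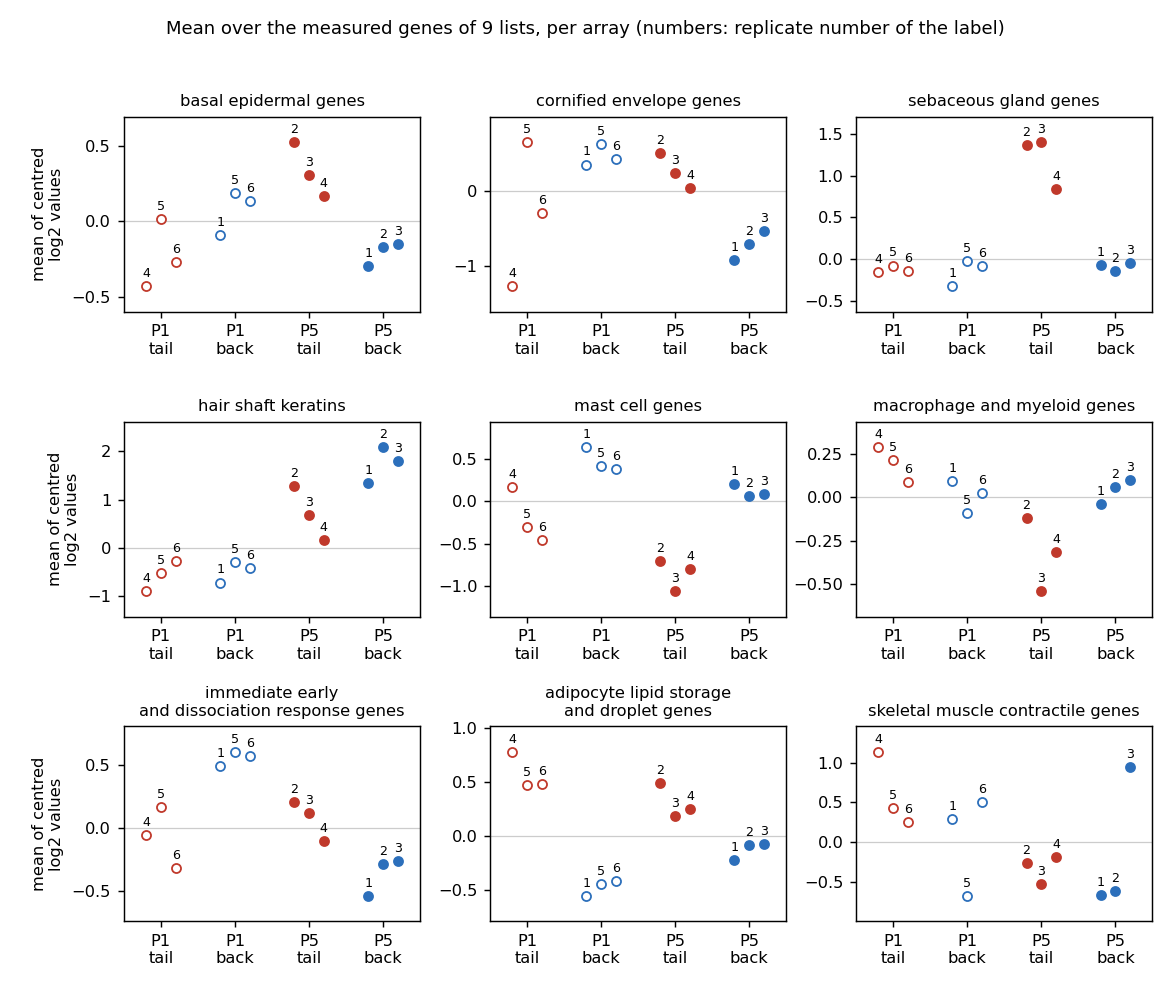
Mean of the centred log2 values over the measured genes of 9 lists (vertical axes) on each array labelled tail (red) or back (blue) at P1 (open) and P5 (filled), with replicate numbers. In muscle genes P5 back replicate 3 at 0.944 stands apart from the other P5 arrays, while P1 tail replicate 4 lies higher, at 1.129. In hair shaft keratins P5 tail replicate 2 at 1.29 lies beside P5 back replicate 1 at 1.35.

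The site difference at P5 was set against that at P1, which rests on 6 other arrays. At P1 722 genes (3.97%) passed, and 256 passed at both ages, which is 20.4% of the P5 genes and 35.5% of the P1 genes. The P1 count fell to 400 when P1 tail replicate 6 was left out, and to 480, 471 and 385 for P1 back replicates 1, 5 and 6. Of the 256, 226 had the same direction, 132 higher and 94 lower in tail-labelled arrays, and 30 had opposite directions. The Hox genes were of the first kind: Hoxd11 was at -3.09 at P1, Hoxa11 at -2.95 and Hoxc8 at 2.78, and the change of the difference with age was -0.19, 0.42 and 0.16, none of which passed (adjusted p between 0.421 and 0.804). Emx2 at 2.83, Zic1 at 2.27, Fmod at -2.85 and Tpsab1 at -2.15 at P1 were near their P5 differences as well. Fmod was at 2.47, 0.72 and 2.00 on P1 back replicates 1, 5 and 6. The mean of the cartilage genes on these arrays was 1.534, 0.067 and 1.307. Mgp, at 1.535, 0.099 and 1.078, and Col8a2, at 1.566, 0.17 and 1.415, were also lowest of the 3 on P1 back replicate 5. The part of cartilage in the P1 differences of Fmod, Mgp and Col8a2 was not tested.

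The site difference itself differed between the ages in 522 genes (2.87%), 351 with a higher and 171 with a lower value of tail-labelled minus back-labelled at P5. Of these, 258 passed at P5 alone, 169 at P1 alone, 45 at both ages and 50 at neither. The count fell to 272 when P1 tail replicate 6 was left out, to 272 and 239 for P1 back replicates 5 and 6, and to 316, 316 and 334 for P5 back replicates 1, 2 and 3. Spink12 differed by 0.07 at P1 and -4.59 at P5 (change -4.66, standard error 0.24, adjusted p = 1.66e-06). Krt2 was lower at both ages, at -7.57 and -3.96, a change of 3.61 (adjusted p = 0.00079). Sebaceous genes gave 8 of 13 with a change, all upward, among them Krt79, at 0.59 and then 2.55 (change 1.96, adjusted p = 6.4e-05). Cornified envelope genes gave 11 of 48, all upward, and this rested on single arrays. At P1 the mean of the list was -1.267, 0.643 and -0.297 in tail-labelled and 0.349, 0.619 and 0.424 in back-labelled arrays, so the labels overlapped there. With P1 tail replicate 5 left out it was 29. It was 3 when the array left out was P1 tail replicate 6, P1 back replicate 5, P1 back replicate 6 or P5 back replicate 1, and it was 6 for P5 tail replicate 2 and 4 and 7 for P5 back replicates 2 and 3. Lor was at -1.95 at P1 (adjusted p = 0.263), or -0.75 without P1 tail replicate 4, and the change to its P5 difference was 5.05 (adjusted p = 0.0289), or 3.85 without that array (adjusted p = 0.00991 by limma), and lost its call without any one of 9 of the other 11 arrays. Immediate early genes gave 21 of 39, all upward: 15 were lower in tail-labelled arrays at P1 and none at P5. With P1 tail replicate 6 left out these counts, 21 and 15, were 12 and 6, with P1 back replicate 5 left out 11 and 8, and with P1 back replicate 6 left out 11 and 7, and the 21 became 13 when P5 back replicate 1 was omitted. Atf3 went from -1.85 to 1.14 (change 2.99, adjusted p = 0.00183). Of the 30 genes with opposite directions, Adtrp had the widest change, from -1.06 to 2.23, and Krt5, Col17a1, Fos and Fosb were among them.

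**Figure D5:**
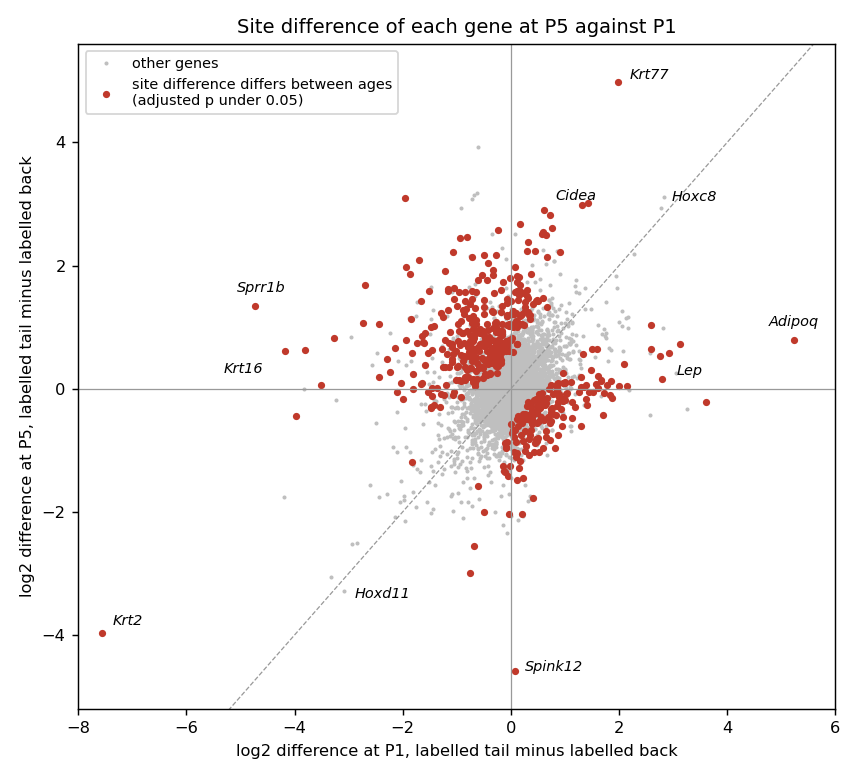
Site difference of each of 18193 genes at P5 (vertical axis) against P1 (horizontal axis), both log2, labelled tail minus labelled back, where red points are the 522 genes whose site difference differed between the ages. Hoxd11 and Hoxc8 lie near the dashed line of equal differences, Spink12 near 0 at P1 and at -4.59 at P5, and Adipoq at 5.23 at P1 and 0.79 at P5.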

How the data were processed

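RNA of 12 dermis samples was hybridised to Affymetrix MG430.2A arrays, with 3 samples for each site at P1 and at P5. The authors deposited 1 table of log2 values made by RMA in GeneSpring, per their methods. In that table every probe set had a median of 0 over the 12 arrays, so absolute signal was not available here and low probe sets could not be set aside by level. No column of values was left unused.

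Of 45101 probe sets, 64 controls were left out and 45037 were tested. The 34945 with 1 gene symbol in the platform annotation were averaged into 18193 genes, 932 had several symbols and 9160 had none. The 4 groups of 3 were fitted together with limma 3.58.1 in R 4.3.3 (lmFit, eBayes), with contrasts for the site difference at P5, at P1 and the change between them, and Benjamini-Hochberg adjustment over all genes at a threshold of 0.05. The script was tested on simulated data. The number of arrays limits the precision.

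Gene lists, members and tests were chosen with earlier results of these data known. Genes were named from the 15 largest non-overlapping differences in each direction, the 4 largest of each list, the 10 largest changes with age in each direction, all Hox genes and the fibroblast and Wnt markers of the study. Abcc9, Adtrp, Ccl27a, Col12a1, Col1a1, Col3a1, Edar, Egr1, Fads2, Fcer1a, Fosb, Gata2, Klk10, Klk5, Klk7, Krt10, Krt35, Krt5, Krt82, Krtap12-1, Lum, Mgll, Ms4a2, Plin4, Retn, Scd3, Sdr16c6, Sfrp4, Sox2, Tbx15, Tbx4, Tcap and Zfp423 were named outside this rule, after their values were seen. The alternatives were centring each array, trend and robust variances, array weights, the P5 arrays alone, a replicate block, each P5 array left out in turn and, added after seeing the data, each P1 array, a filter on the 20% of probe sets with the smallest range, the methods' t-test, leaving out probe sets of shared sequence, and the probe set with the largest SD for each gene. Promoters were taken from RefSeq for build GRCm38.p6, with the first entry of each gene.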

Additional observations from a re-analysis of the deposited data

Results flagged for a closer look

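The site difference, tail-labelled minus back-labelled, differed between P5 and P1 in 522 genes by the limma contrast of the 2 differences, and the named genes among them are given with their change, P5 minus P1. Of the 64 named here, 45 to 61 still passed with 1 array left out, and none changed sign or moved by over 1.5 times. Groups of 3 arrays were too small for the test of single arrays far from the others, and no data lay outside the comparisons.

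Among keratins of the epidermis the change was 2.99 for Krt77, 3.61 for Krt2, 1.21 for Krt5, 1.76 for Krt14, 1.83 for Krt15, 4.42 for Krt6b and 4.79 for Krt16. In the last 2 the difference at P1 was -3.80 and -4.18, and neither passed at P5. Col17a1 changed by 2.53, Lamb3 by 2.22 and Lor by 5.05. For proteases and inhibitors the change was -4.66 for Spink12, 2.5 for Cst6, 1.84 for Klk6, 1.53 for Klk7, 1.21 for Klk10 and 3.79 for Tmprss4.

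For sebaceous and lipid genes the change was upward: 1.96 for Krt79, 2.28 for Cidea, 1.47 for Far2, 2.67 for Elovl4, 2.84 for Sdr16c6, 1.48 for Scd3, 0.97 for Plin2, 0.84 for Cebpa, 1.0 for Me1 and 2.47 for Orm1. Fat-cell genes changed downward, by -4.44 for Adipoq, -2.36 for Lep, -2.23 for Cidec, -1.96 for Retn and -1.55 for Igf1. The change of other genes near the top of the P5 list was 2.10 for Ces4a, 1.67 for Tmem45b, 1.60 for Cyp2g1 and 3.29 for Adtrp.

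In follicle and papilla genes the change was -1.44 for Krt32, 1.49 for Lgr6, 0.77 for Lrig1, 1.08 for Sox9, -1.22 for Igfbp3, -1.34 for Prom1 and 1.79 for Sostdc1. Signalling, matrix and position genes gave -1.91 for Sfrp4, -0.96 for Bmper, 2.36 for Grem1, 1.43 for Fst, 1.31 for Col4a5, 0.97 for Adamts8, 0.85 for Hoxa2, 1.61 for Irx4 and -0.94 for Tbx15.

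Immediate early genes changed by 1.61 for Egr2, 2.03 for Fos, 2.49 for Fosb, 1.25 for Jun, 2.99 for Atf3, 2.02 for Socs3 and 1.22 for Egr1. For immune genes the change was -1.32 for Mrc1, -1.45 for Cd163, -1.16 for Pf4, 1.49 for Cd3g and 1.73 for Defb6. The pericyte gene Abcc9 changed by -0.95.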

How the results depend on the processing

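The count of 1257 genes (2145 probe sets) at P5 depended on the processing. It was 662 genes (1136 probe sets) with array weights, 713 (909) with the 6 P5 arrays alone and 24 (5) by the methods' t-test, at an unadjusted p under 0.05 of 2286 genes and 4696 probe sets. Leaving out 1 P5 array gave 737 to 2136 genes and 1120 to 3952 probe sets, with the lowest without P5 back replicate 2 and the highest without P5 tail replicate 4. The probe sets at 2-fold, 904, ranged from 885 to 1250 in this way, and the genes whose site difference changed with age, 522, from 316 to 731, or from 239 to 659 with 1 P1 array left out. At P1 the 722 genes were 3650 with array weights, 604 to 1038 with 1 P5 array left out and 385 to 789 with 1 P1 array left out. The P1 arrays left out and all alternatives of the P1 count were added after seeing the data. The replicate numbers 2 and 3 are shared by tail-labelled and back-labelled P5 arrays, but their deviations correlated at 0.17 and -0.02, so they were not taken as pairs, and with the number as a block 1008 genes (1615 probe sets) passed, 1027 probe sets reached 2-fold, 689 genes changed with age and 575 passed at P1. Of 165 named genes that passed, 123 to 165 still passed under the alternatives other than the t-test, under which 14 did (leaving out shared sequence left 148, of which 141 passed), and none changed sign under any alternative. Hoxc9, which did not pass, was at -0.205 to 0.027 with 1 P5 array left out, above 0 without P5 tail replicate 3 alone. Of the other settings, centring each array gave 1239 genes, trend and robust variances 1160, the range filter 1253, leaving out shared sequence 1044 and the largest SD 1194. Axin2, Bmp5, Cry2, Erbb3, Il18, Krt8, Krt83, Sfrp4 and Wnt10b passed as genes, but none of their probe sets passed when tested by probe set. The probe sets of Lef1 had an adjusted p of 0.012 and 0.35 by limma.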

Other observations

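Genes of smooth muscle and pericytes, the contractile cells of vessels and of the muscles that raise hairs, split in direction between the P5 arrays. Of 19, 3 were higher and 2 were lower in tail-labelled arrays (26.3%, against 6.91% of all genes). Myocd, the factor that switches on smooth muscle genes, was at 1.35, 0.57 and 0.43 in the tail-labelled and -0.49, -0.37 and -0.43 in the back-labelled arrays (log2 difference 1.21, standard error 0.19, adjusted p = 0.00166 by limma). Actg2, an actin of smooth muscle, differed by 1.13, or 0.72 without P5 tail replicate 2, and Mylk, the kinase that starts contraction, by 0.79. Rgs5, a marker of pericytes, was at -0.65, -0.34 and -0.35 in the tail-labelled and 0.44, 0.47 and 0.46 in the back-labelled arrays (log2 difference -0.91, standard error 0.14, adjusted p = 0.00188), and Abcc9, another pericyte gene, differed by -0.69. The labels did not overlap for Myocd and Rgs5. Without P5 back replicate 1 the list gave 2 higher and 1 lower.

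Of 17 circadian clock genes 3 were lower and none was higher (17.6%, against 6.91% of all genes). They were Bhlhe40 at -0.58, Per3 at -0.53 and Cry2 at -0.53, all repressors within the clock. None passed without P5 back replicate 2 and 1 passed without P5 back replicate 3. Among Schwann cell and myelin genes 2 of 14 (14.3%) were higher, against 6.91% of all genes in either direction. They were Erbb3, a receptor of the neural crest lineage, at 0.63 and Egr2, which is also an immediate early gene. The count was 1 without P5 tail replicate 3 or P5 back replicate 1 or 3. Ccl27a, a chemokine of keratinocytes that draws T cells, was higher by 0.86.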
